A study of Acipenser sturio with 24 samples.

Results

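Sturgeon eggs and embryos up to mid gastrula were compared with late tailbud embryos, which sets the RNA stock of the egg and early embryo against the RNA of an embryo that is forming organs. The members were 11 of the 24 libraries of the series, chosen by developmental stage alone. The early group held 7 libraries, at stages 0, 4, 8, 9, 10, 10.5 and 11 of the Nieuwkoop-Faber (NF) table, a staging scheme drawn up for the frog Xenopus. The late group held 4 libraries, at stages 29, 32, 35 and 36. The other 13 libraries, stages 12 to 26, belonged to neither group and served to follow the changed RNAs between them.

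All libraries were made from whole embryos of the Bester sturgeon, a hybrid of beluga (Huso huso) and sterlet (Acipenser ruthenus), although their organism entry reads Acipenser sturio. Rearing was in a dilute salt medium (MMR), and no treatment separated the groups. Total RNA was freed of ribosomal RNA before library construction, a protocol that does not select for poly(A) tails. Each stage is 1 library. The number of embryos or clutches pooled into a library is not stated in the labels. The error of a group is therefore the spread between neighbouring stages and includes development within the group.

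As background, a vertebrate egg is loaded with maternal RNA during oogenesis, and the early cleavages run on that stock while the embryo's own genome is largely silent. Transcription of the zygotic genome starts in earnest around the mid-blastula in frogs and fishes, and maternal RNAs are then cleared over the following stages. By the tailbud stages the embryo holds differentiating muscle, nervous system, blood and gut, each with RNAs of its own. Sturgeon eggs divide completely, as frog eggs do.

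The deposited table lists an abundance per assembled component for each library, normalized before deposit. A component is a group of assembled transcripts, and its identifier consists of a component number and a suffix for a sub-component. No gene name stands beside an identifier in the files, so components are described by their values and 4 are given by identifier. Of 275906 components in the table, 226269 were above 0 in at least 1 of the 11 libraries, and 27527 (9.98%) had a value of 1 or more in at least 4 of them and were kept. This filter treats the groups unequally, because a component present at late stages alone must reach 1 in all 4 late libraries, while one present early alone needs 4 of 7. Of the 10423 components that reached 1 in exactly 4 libraries, just inside the filter, 9119 did so in the 4 late libraries. Just outside it were 10261 components at 1 or more in 3 libraries.

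The summed value per library ran from 383496 to 452570 in the early group and from 554255 to 679612 in the late group. Absolute depth in reads is unknown. The number of reads behind 1 unit of value, taken from the ratios of low values with stage 36 set to 1, was lowest at stage 29 (0.627) and highest at stage 4 (3.41). Stages 0, 29 and 36 scored above the other 8 libraries on the main axis of the residuals about a stage curve fitted to all 24 libraries. The division was made at the widest gap between scores, 0.085 between stages 4 and 15, which was little wider than the next gaps of 0.0783 and 0.077. Stage 4 lay beside the gap, and stage 29 scored 0.163, between stage 4 at 0.0006 and stage 36 at 0.346. The same 3 had the fewest reads per unit, 0.882 at stage 0, 0.627 at stage 29 and 1 at stage 36, against 1.35 to 3.41 for the other 8. The labels record nothing that divides the libraries in this way, and results are given within the sets where the set changes them.

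The 7 early libraries were close to each other and far from the late ones. The Spearman correlation across kept components ran from 0.889 to 0.948 over the 21 early pairs, from 0.796 to 0.913 over the 6 late pairs, and from 0.224 to 0.372 over the 28 pairs of an early with a late library. Stage 0 was the early library least like the others, with correlations of 0.889 to 0.911. The highest late correlation, 0.913, joined stages 32 and 35. The points are components that share their libraries, so the coefficients are a description without a test. By scaled value, 8009 (29.1%) of the kept components were at 1 or more in all late and no early library. The filter admitted them through the late libraries, which bears on the coefficients between the groups.

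Most of the kept components differed between the groups. Of 27527 tested, 21251 (77.2%) passed an adjusted p threshold of 0.05 (limma on log2(scaled value + 1), with Benjamini-Hochberg adjustment), 14746 (53.6%) of them higher and 6505 (23.6%) lower in late tailbud. The higher components changed by a median of 1.66 on the log2 scale, with a median SE of 0.191. The lower ones changed by a median of -1.11, with a median SE of 0.205. Every late library stood above every early library for 12848 components (46.7%), and every early library stood above every late one for 4557 (16.6%). By presence at a scaled value of 1, all 8009 components found in every late and no early library were called higher. Of the 698 found in every early and no late library, 697 were called lower. Both kinds were admitted through the group where they are high, and they raise the shares called and not overlapping. Of the 8703 present in all 11 libraries, 29.2% were called higher and 37.5% lower. The p-values set the difference of the groups against the spread between stages of a group. With 1 library per stage, they do not cover variation between libraries of the same stage.

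The median log2 change over the 27527 tested was 0.78, with 0.38 to 0.94 under the other scalings of the libraries. This median depended on which components were admitted. It was 0.28 without a filter and 0.09 at 5 or more in at least 4 libraries. By presence at a scaled value of 1, it was 1.85 among the 8009 components found in all late and no early library, which entered only through the late libraries. It was -0.14 among the 8703 present in all 11 libraries and 0.27 among the 10117 present in part of a group. Of the called components, 69.4% were higher late, against 59.8% with trimmed-mean scaling and 73.5% with a scaling on the better expressed components. Of the 14746 higher components, 13650 also exceeded the shift of 0.78. Among components at 5 or more in at least 4 libraries, 4246 were higher and 3701 lower in the main scaling, a small excess of rises (53.4% of calls). Other scalings were not tried with this filter. Among components with a mean scaled value between 5 and 10 the order depended on the scaling. There 40.5% were higher and 33.7% lower in the main scaling, against 34.5% higher and 43.3% lower under column totals.

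At least 4-fold changes were found in 4917 components that rose and 934 that fell. Of these rises 3307 were components present in all late and no early library, and 226 of the falls were components present in all early and no late library. Such components were admitted through the group where they are high, so these counts are a description. Among the other 18820 components, 1610 rose and 708 fell at least 4-fold. These 18820 still include components admitted through 1 group. The early-only class needed all 7 early libraries, while the filter needed 4. A deposited value of 1 was reached in exactly 4, 5 and 6 early libraries and no late one by 378, 311 and 288 components. The filter also used deposited values and the classes scaled ones. By deposited value, 9119 components reached 1 in the 4 late libraries alone, more than the 8009 present late alone by scaled value. Over all tested, changes of at least 16-fold were found in 596 and 80, and changes of at least 64-fold in 112 and 7. With a minimum fold of 2 built into the test, 10194 components were higher and 1910 lower. All folds are on the value + 1 scale, which understates the change of low components.

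**Figure D1:**
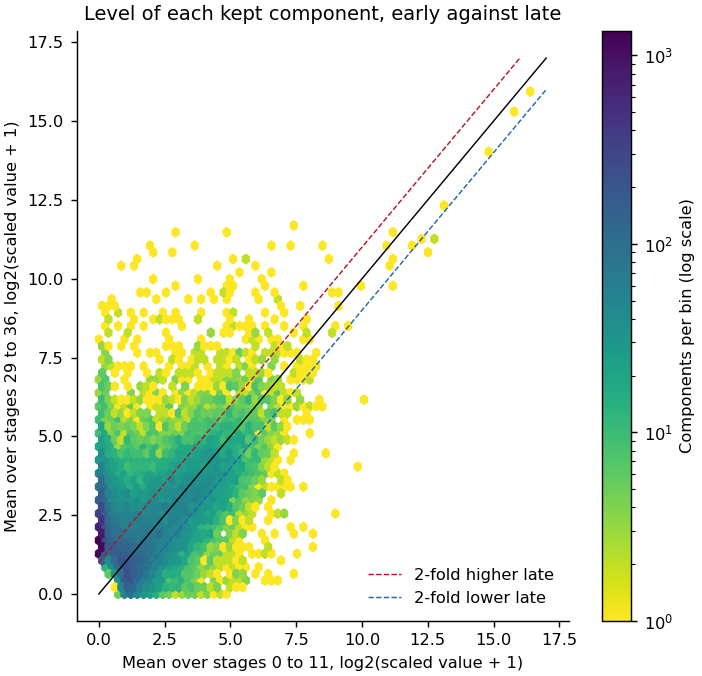
Each of the 27527 kept components by its mean log2(scaled value + 1) over the 7 early libraries (horizontal axis) and the 4 late libraries (vertical axis), with the number of components per bin in colour on a log scale. The dense column at the left edge holds components near 0 early and present late, and it has no counterpart of equal size along the lower edge.

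The 2 components with the highest rise were low in all 7 early libraries, 1 of them with values above 1 in 6 of the 7. For comp270894_c0 the deposited values at stages 0, 4, 8, 9, 10, 10.5 and 11 were 1.25, 0.24, 0.30, 3.44, 0.23, 1.06 and 0.72. At stages 29, 32, 35 and 36 they were 1322, 1739, 1794 and 1018. The groups did not overlap, and stage 9 was the highest early library. The log2 change was 9.50 (SE 0.333, limma adjusted p = 7.14e-11). At the stages between the groups, this component was no higher than 3.95 up to stage 22. It then climbed through 46.8 (stage 23) and 134 (stage 24) to 491 (stage 26).

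For comp263576_c0 the early values were 5.19, 2.55, 0, 8.39, 1.41, 2.89 and 3.44 in the same order of stages. The late values were 1293, 1880, 3011 and 3424, rising from stage 29 to stage 36. Stage 9 was again the highest early library and no early value came near the late ones. The log2 change was 9.15 (SE 0.476, limma adjusted p = 1.53e-09). This component first left its early range at stage 23, at 18.2, and reached 628 at stage 26. It was the 16th most abundant component of the late group by mean scaled value.

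The 2 components with the deepest fall were well expressed in the egg. For comp254146_c1 the values at stages 0 to 11 were 135, 172, 169, 164, 158, 143 and 158, and those at stages 29 to 36 were 1.17, 0.70, 0.51 and 0.24. The early libraries lay close together and the late ones all lay far below them. The log2 change was -6.63 (SE 0.163, limma adjusted p = 5.71e-12). It still stood at 143 at stage 16, then passed through 64.1 (stage 18) and 17.9 (stage 22) to 1.96 (stage 26), so most of its fall came after stage 16.

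For comp263267_c0 the early values were 309, 205, 294, 287, 335, 254 and 262, and the late values 3.47, 2.70, 1.31 and 0.84. The groups were again fully separate. The log2 change was -6.63 (SE 0.235, limma adjusted p = 7.46e-11). It fell earlier than comp254146_c1, with 91.3 at stage 15 and 63.7 at stage 16, where comp254146_c1 stood at 131 and 143. It then stood at 31.5 (stage 18). At stage 12.5, where the scaling factor was 0.567, both components had a lower deposited value (151 and 114) than at stages 12 and 13. In the smaller set of libraries alone (stages 0, 29 and 36), which leaves 1 residual degree of freedom, the changes of these 4 components were 8.86, 8.24, -6.44 and -6.85 and none passed the threshold (adjusted p = 0.107 each).

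**Figure D2:**
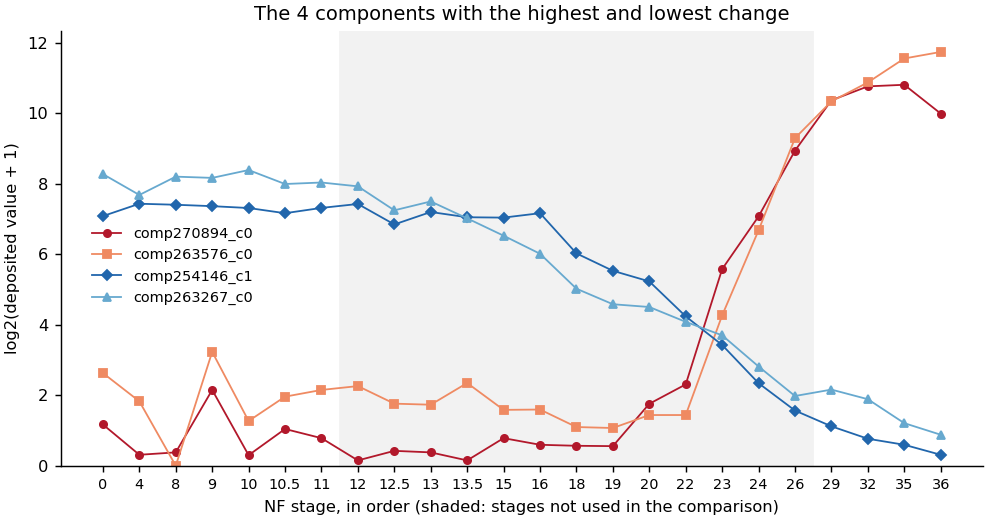
Deposited value of the 4 components with the highest and lowest change, as log2(value + 1), in each of the 24 libraries in stage order. Shading marks the 13 stages that the comparison did not use. Both rising components were under 5 at stage 22 and stood at 46.8 and 18.2 at stage 23, and the falling ones declined over many stages.

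The 112 components that were at least 64-fold higher late were followed through the early libraries. These 112 were picked by that fold, which by itself requires low early values, so they do not stand for late RNAs in general. Their median deposited values at the 4 late stages in order were 134, 183, 284 and 270. Early medians ran from 0.065 at stage 8 to 0.545 at stage 0. Stage 9 stood out by the number of these components listed above 0, since only 6 of 112 were at 0 there, against 49 at stage 8 and 49 at stage 10. The highest of the 7 early values fell at stage 9 for 44 of these components and at stage 0 for 31. Stage 0 had 27 at 0 and stage 4, with the most reads per unit of value, had 26. Why low values of late RNAs were listed more often at stage 9 than at its neighbours was not tested.

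These 112 components rose late in the series. Their median passed through 0.735 (stage 16), 3.16 (stage 20) and 13.2 (stage 23) to 59.1 (stage 26). The upper quartile ran ahead of the median, with 60.0 by stage 18 and 174 by stage 23. Together they held 0.0268% to 0.0844% of the summed value in the early libraries and 8.46% to 10.1% in the late ones. The 80 components at least 16-fold lower late went the other way, from 1.55% to 1.8% of the summed value early to 0.0175% to 0.0363% late. Their median deposited value went from 42.2 (stage 12) through 23.4 (stage 12.5), 31.9 (stage 13), 12.1 (stage 16) and 4.62 (stage 18) to 1.10 (stage 26). Deposited values are not scaled between libraries, and the scaling factor was 0.859 at stage 12 and 0.567 at stage 12.5. Both lists were picked on the early and late values, so their shares at these stages are a description.

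Late tailbud RNA was spread over many more components than early RNA. The number of components at 1 or more was 15168, 15390, 16337, 15850, 16690, 16534 and 15618 at the 7 early stages in order. It was 60863, 47483, 42896 and 55234 at stages 29, 32, 35 and 36. The groups did not overlap, and the late mean was 3.24 times the early mean (51619 ± 7994, SD, n = 4, against 15941 ± 589, SD, n = 7; two-sided exact permutation test, p = 0.00606, adjusted p = 0.00606 over 7 measures). This is the smallest p that 7 against 4 libraries allow. The 2 late libraries with the highest numbers, stages 29 and 36, were the late ones with the fewest reads per unit, where 1 read carries more value. Stage 0 also had few reads per unit (0.882 relative to stage 36) but the lowest number of the 11 libraries. Whether reads per unit bear on these numbers was not tested.

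At a value of 5 or more the difference was smaller and the late libraries nearly equal. The numbers were 6646 to 7424 early, with a median of 6945, and 9920 to 10863 late, a ratio of 1.5 (two-sided exact permutation test, p = 0.00606, adjusted p = 0.00606). At 50 or more they were 552 to 692 early and 843 to 1193 late, a ratio of 1.58 with the same p. The late libraries had more components at each of the 3 levels counted, with the highest ratio at the lowest level. All 3 counts use deposited values, which are not scaled between libraries. The summed value was also higher in the late libraries (554255 to 679612) than in the early ones (383496 to 452570). The counts were not repeated on scaled values, so how far these ratios rest on the higher late totals was not tested.

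The early libraries were dominated by very few RNAs. The number of components that together made up 50% of the summed value was 7 to 12 in the early libraries and 217 to 386 in the late ones. To reach 90% took 4747 to 5131 components early and 28562 to 38281 late. The 10 most abundant components of a library held 52.0% ± 1.73 (SD, n = 7) early and 25.9% ± 2.34 (SD, n = 4) late. For each of these 3 measures the groups were separate (two-sided exact permutation test, p = 0.00606, adjusted p = 0.00606). All 3 measures include the 3 most abundant components. Those alone held 37.6% to 45.4% of the summed value early and 17.2% to 24.0% late, so much of the contrast lies in them.

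The same 3 components led every one of the 11 libraries, and all 24 libraries of the series. The first held 14.3% to 27.0% of the summed value at early stages, with a median of 20.9%, and 12.8%, 10.3%, 12.0% and 8.48% at the 4 late stages. The second held 12.0% to 16.4% early and 8.93%, 7.91%, 7.25% and 5.11% late. The third held 3.8% to 10.2% early and 2.30%, 3.16%, 2.27% and 3.57% late. As shares, all of their late values lay below all of their early values. What these 3 components are was not determined here.

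As scaled values the fall of these 3 depended on the scaling. Their log2 changes were -0.49, -0.53 and -0.74, with adjusted p from 0.0129 to 0.0301 (limma) and with overlapping groups. Scaling on the better expressed components gave -0.27, -0.31 and -0.52 with none past the threshold, and the trimmed mean gave -1.07, -1.11 and -1.32 with all past it. With stages 0, 29 and 36 alone the third stood at 0.02. Their share of the library fell, and whether their level fell is not settled by these values.

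Outside the top 3, most of the summed value changed hands. Components called higher late held 12.6% to 16.4% of the remaining value in the early libraries and 55.2% to 59.6% in the late ones. Components called lower late held 56.8% to 63.5% early and 11.2% to 14.2% late. Those not called held 21.3% to 23.9% early and 10.8% to 13.7% late. The calls and these shares come from the same values, so the shares describe the size of the change and do not test it. Components outside the filter held 1.52% to 1.99% of the whole early value and 12.2% to 17.2% of the late value, with the highest share at stage 29. In bulk RNA of whole embryos, fewer cells of a type and less RNA per cell cannot be told apart, and a share says nothing of the amount of RNA per embryo.

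**Figure D3:**
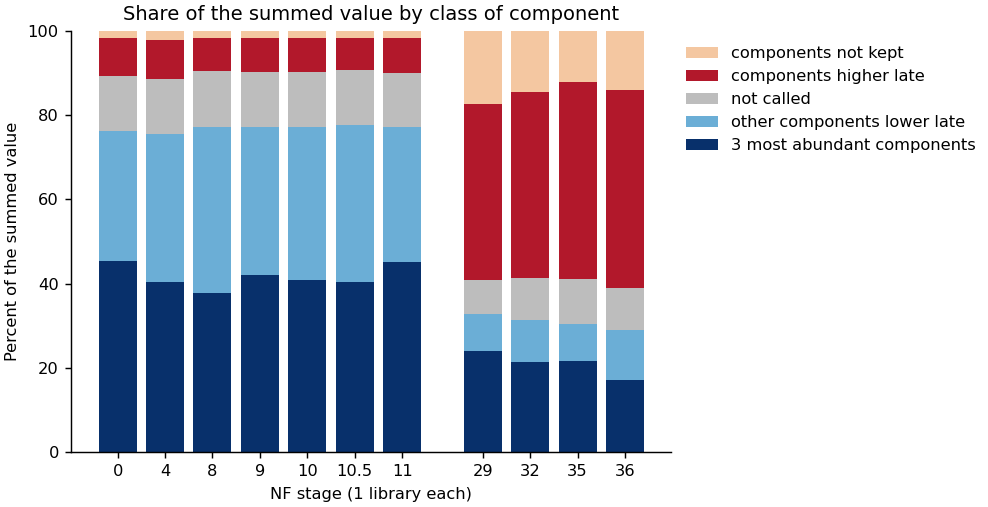
Share of the summed value of each library (vertical axis, percent) held by the 3 most abundant components, by other components called lower late, not called or called higher late, and by components outside the filter, for the 7 early and 4 late stages. The red part grew from 7.51% to 9.32% in the early libraries to 41.9% to 47.2% in the late ones.

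The most abundant components of the 2 groups, by mean scaled value, were shared in part. Of the 10 most abundant of each group 5 were shared, of the 100 most abundant 25 were shared, and of the 1000 most abundant 368 were shared. Among the 100 most abundant late components, 81 were called higher late (background 53.6%), 11 lower and 8 were not called, with a median log2 change of 4.90 against 0.78 for all tested. Among the 100 most abundant early components, 66 were called lower (background 23.6%), 12 higher and 22 were not called, with a median of -1.01. The lists were picked on the values of one group, which by itself draws the change in that direction. Of the 100 most abundant late components only 2 were below 1 in all 7 early libraries, and of the 100 most abundant early components 0 were below 1 in all 4 late libraries.

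The share of rises and falls depended on the level of the component. Among 13062 components with a mean scaled value below 2, 65.7% were called higher and 13.4% lower. With rising level the balance tipped towards falls, and between 20 and 50 it was 31.8% higher and 49.0% lower of 1722. At still higher levels it tipped back, to 47.4% higher and 37.6% lower of 633 components between 50 and 200, and to 60.0% higher and 25.2% lower of 115 components at 200 or more. Falls outnumbered rises between 20 and 50, and rises outnumbered falls at 200 or more, under each of the 5 scalings. Between 50 and 200 the order depended on the scaling, with 39.2% higher and 46.3% lower under column totals and 38.4% higher and 48.2% lower under the trimmed mean. At 200 or more, 59 of the 69 that rose did so at least 4-fold, against 7 of the 29 that fell. The median log2 change was 1.26 in the lowest class, -0.38 between 20 and 50 and 2.42 at 200 or more. The mean was taken over the 11 libraries, of which 7 are early, and low components were admitted by the filter described above.

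**Figure D4:**
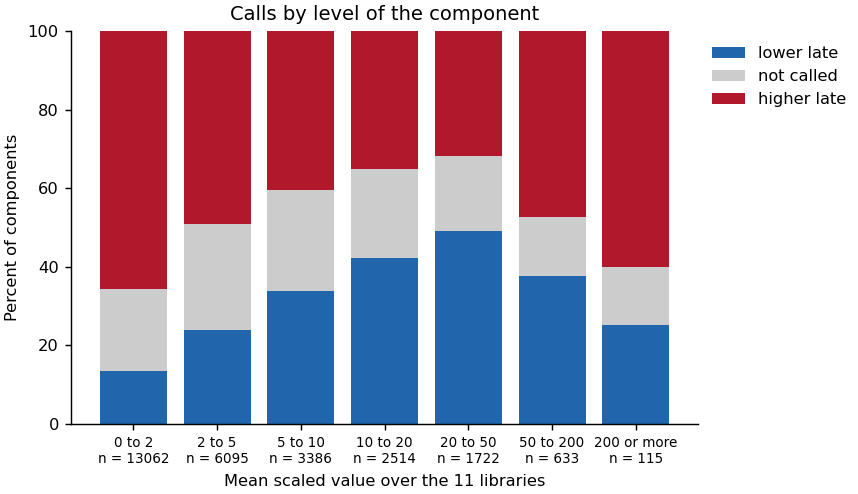
Percent of components called lower late, not called and called higher late (vertical axis) in 7 classes of mean scaled value over the 11 libraries, with the number of components under each bar. Falls were most frequent between 20 and 50, at 49.0%, and rises at the low and high ends, at 65.7% and 60.0%.

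Components were also classed by presence, taken as a scaled value of 1 or more. Of the 27527, 8703 (31.6%) were present in all 11 libraries, 8009 (29.1%) in all late and no early library, and 698 (2.54%) in all early and no late library. The other 10117 (36.8%) were present in part of a group. In the whole table, without the filter, late-only components numbered 8133 and early-only components 698. The unequal filter thus changed the ratio of late-only to early-only components little. The class rule is itself unequal, because the early group has more libraries in which an early-only component must be present. How far this rule bears on the ratio was not tested.

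Late-only components were numerous but mostly low. The median of their mean late value was 2.99, and 392 of 8009 reached 10 and 54 reached 50 in every late library. They held 0.143% to 0.219% of the summed value in the early libraries, highest at stage 4, and 8.62% to 9.40% in the late ones. Of the 8009, 2567 were listed at 0 in all 7 early libraries. Early-only components held 0.897% to 0.957% early and 0.0316% to 0.0445% late. The median of their mean early value was 3.0, and 42 of 698 reached 10 in every early library. In all 4 late libraries 43 of them were listed at 0.

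An RNA that was both abundant and absent at the other end was rare. In the whole table, 93 components had a deposited value of 5 or more in all 4 late libraries and were listed at 0 in all 7 early ones, 24 did so at 10 or more and 0 at 50 or more. In the opposite direction the numbers were 7, 3 and 0. There were 634 components at 50 or more in all late libraries and 406 in all early ones. Each of these therefore had a value above 0 in at least 1 library of the other group.

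Components present throughout carried most of the RNA at both ends, with 91.8% to 92.7% of the summed value early and 65.6% to 68.0% late. Within this class falls were more frequent than rises, with 3261 of 8703 (37.5%) called lower and 2540 (29.2%) called higher. This order was the reverse of that over all tested components and it held under 3 of the 4 other scalings. Scaling on the better expressed components turned it, with 3040 higher and 2727 lower. Their median log2 change was -0.14, and 5303 (60.9%) lay within 2-fold. At least 4-fold changes were found in 978 of them.

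Where in development the change fell was read from the 13 stages that the comparison did not use. For each called component with a change of at least 2-fold, its position at a stage was put on a scale from 0, the early mean, to 1, the late mean. At stages 12, 13.5, 16, 18 and 26 the 12781 rising components had median positions of 0.00, 0.09, 0.43, 0.69 and 0.92. The 3768 falling components had medians of 0.00, 0.15, 0.51, 0.77 and 0.95 at the same stages. In the main scaling both moved together, with little change up to stage 12, most of it between stages 13.5 and 18, and a slow remainder afterwards.

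The timing of both depended on the scaling, in opposite directions. With libraries scaled to column totals, the median position of the falling components at stages 12.5, 15 and 18 was 0.28, 0.65 and 0.93, against 0.07, 0.37 and 0.77 above. That of the rising ones was 0.00, 0.15 and 0.51, against 0.05, 0.30 and 0.69. Under column totals the falls thus stood ahead of the rises at each of these stages. The scaling factors at stages 12.5 to 18 lay between 0.502 and 0.718, the lowest of the series, and they raise the scaled values of those stages.

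**Figure D5:**
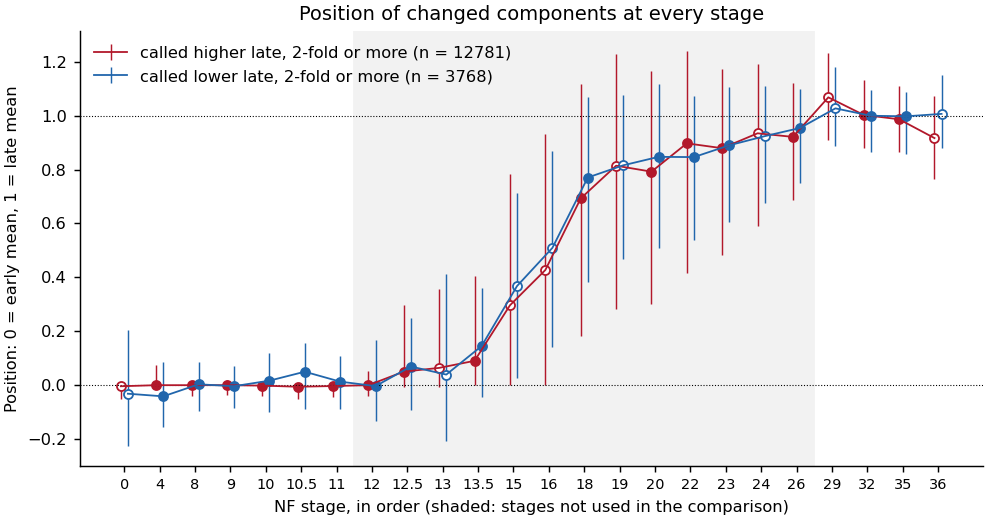
Median position of components called higher (12781) or lower (3768) late by at least 2-fold, on a scale from the early mean (0) to the late mean (1), at each of the 24 stages. Bars are the quartiles over components and open circles mark libraries of the smaller set. Both medians stayed near 0 up to stage 12 and reached 0.69 and 0.77 at stage 18.

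Individual components varied widely around these medians. Taking the 10 libraries of the larger set after stage 11, 51.8% of the rising and 56.0% of the falling components had passed 0.5 for good by stage 18. The step from stage 13.5 to stage 18 alone held 4262 (33.3%) of the rising and 1762 (46.8%) of the falling ones. Stages 15 and 16 lie within this step but belong to the smaller set, so they were not counted. At stages 13.5, 15 and 16, 20.2%, 38.1% and 46.3% of the rising components lay past 0.5. For the falling components these shares were 14.5%, 40.1% and 50.7%. Another 1925 (15.1%) of the rising components first passed at stage 26 and 1651 (12.9%) at stage 32. Early risers were few, with 187 (1.46%) at stage 12 and 1253 (9.80%) at stage 12.5. At stage 26, 86.5% of the rising and 89.7% of the falling components lay past 0.5. These counts use the main scaling. At stage 18, 59.7% of the rising and 68.7% of the falling components lay past 0.5 in it, against 50.4% and 85.1% under column totals.

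Most called components moved in the direction of their call between 2 libraries that took no part in the calls. Stage 12 and stage 26 lie next to the 2 groups and were not used. From stage 12 to stage 26, 14003 of the 14746 components called higher (95.0%) rose, against 64.7% of all tested, and 5865 of the 6505 called lower (90.2%) fell, against 34.7% of all tested. The median log2 changes between these 2 libraries were 1.47 and -1.04, and 0.02 among the components not called. Each of these stages is 1 library. Of the components called higher, 8009 were present in all late and no early library and were admitted through the late libraries. Stages 12 and 26 adjoin the groups in a continuous series, so the agreement is a description and not an independent test.

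The library sets, whose border is a narrow one, gave a second comparison without shared libraries, but over components that all 11 libraries had helped to admit. For the 8009 late-only and 698 early-only components the direction in the smaller set was fixed in advance by the definition of the class. The agreement given here includes them and is a description. In the larger set, with stages 4 to 11 against 32 and 35, limma called 21012 components. Of these, 20103 (95.7%) had the same direction in the smaller set, stage 0 against 29 and 36, compared with 88.2% of all tested components. By direction, 96.8% of the 14894 higher and 92.8% of the 6118 lower calls had that direction in the smaller set, where 64.4% and 35.0% of all tested components did. The median changes were 1.64 and 1.68 among the higher calls and -1.15 and -1.17 among the lower calls, in the larger and smaller set. The smaller set alone called 0 components in limma, with 11311 at an unadjusted p under 0.05 and 1 residual degree of freedom.

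Within the late group the rising components were not flat. Of the 12781, the shares with their highest value at the 4 late stages in order were 40.7%, 22.1%, 18.9% and 18.3%. They were lowest at stage 36 in 40.5%. Stages 29 and 36 both belong to the smaller set, and under column totals the shares highest there were 35.9% and 23.0%. The median SD over libraries was 0.39 (log2) in the late group for components called higher, against 0.17 in the early group. Early values of 8009 of them were below 1 in every library, where the value + 1 scale compresses differences. For components called lower the median SD was 0.30 in both groups. A range of at least 4-fold between late libraries was found in 840 of the 14746. It was found in 1556 of the 27527 tested, a share close to that, and in 574 of the 6276 not called.

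Within the early group the falling components were highest most often at the first 2 stages. Of the 3768, 32.0% were highest at stage 0 and 21.9% at stage 4, against 6.98% to 12.9% at each of the other 5 stages. Stage 0 was also the lowest of the 7 for 25.6% of them, and stage 10.5 for 23.4%. Their median deviation from the early mean was 0.05 at stage 0 and 0.07 at stage 4, and -0.09 at stage 10.5, on the log2 scale.

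Sub-components that share a component number often went in the same direction but not always. There were 2615 numbers with 2 or more called sub-components. In 1291 of them all were higher late, in 533 all were lower, and in 791 (30.2%) both directions occurred. Of the 3934 pairs, 71.2% had the same direction, compared with 57.5% from the shares of the directions. In 56 numbers 1 sub-component was at least 4-fold higher and another at least 4-fold lower. Sub-components of 1 number may share sequence, and the sources used here do not say how their reads were divided, so these values are uncertain.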

How the data were processed

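Whole-embryo libraries of 11 stages were compared, and 13 further libraries were used for position only. The deposited table holds a signal per component, a normalized abundance in the authors' own unit. The sources used here name neither FPKM nor TPM, nor any scaling between libraries. CASAVA 1.8.2, Trimmomatic, Bowtie and RSEM appear in the submitters' processing notes, without role or order. No assembler is named there. Values above 0 were whole numbers in 0.539% of cases, so no count model was used. All columns were mapped to samples by the column names in the labels (0 unmapped).

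Values were divided by a median-of-ratios factor over the 17578 components above 0 in all 11 libraries (0.921 to 1.26), and factors for the 13 other libraries came from the same components. limma 3.58.1 (R 4.3.3) was fitted to log2(scaled value + 1), pseudocount 1, across all kept components with a mean-variance trend and robust variances, and tested on simulated data. Single values per library were compared with exact permutation tests (SciPy 1.17.1). Relative reads per unit came from modal ratios of values under 1 over 55 library pairs, with every pair under 0.1 (log2) from its fit. Library sets came from the first principal component (29.2% of variance) of residuals of 2258 components with a mean of 20 or more about a spline with 4 degrees of freedom, divided at the widest gap. Named components are the 2 highest and 2 lowest log2 changes past the threshold with separate groups. Alternatives covered scaling, pseudocount, filter, minimum fold, variance model and library choice. The comparison, lists and classes were chosen with earlier results of these data known.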

Additional observations from a re-analysis of the deposited data

Results flagged for a closer look

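Of 36 combinations of group and measure, 4 held a library far from the rest of its group. Chance alone lists about 1 in 20 where measures are independent and libraries interchangeable. Here the measures are linked and the libraries are ordered stages, so the 4 cannot be set against that rate. At stage 4, 12 components made up 50% of the summed value, against at most 9 at the other early stages. At stage 4 the late-only components held 0.219% of the summed value, against at most 0.168% at the other early stages. Also at stage 4, the components present throughout held 91.8%, against at least 92.5% elsewhere in the early group. Stage 4 had 3.41 times the reads per unit of value of stage 36, the most of the 11 libraries, and listed 55224 components above 0, against 29906 to 37697 at the other early stages. The value of comp270894_c0 at stage 9 was 3.44, against at most 1.25 at the other early stages. What sets these libraries apart was not tested.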

How the results depend on the processing

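The count of 21251 changed components became 86484 without a filter (of 226269 tested), 7947 at 5 or more in 4 libraries (of 9998), 12104 with a minimum fold of 2 and 0 in stages 0, 29 and 36 alone, where 1 residual degree of freedom was left. Fewer or more components enter the test under a filter. Of the main calls 34 turned in sign under column totals, 152 under the trimmed mean, 1 in the larger set and 372 in the smaller set. Every other alternative stayed within 1.5 times, and leaving out each library gave 20567 to 21486. The smaller set alone, the set as a term and the filter at 3 libraries (30636 calls) were chosen after seeing the data. The rise in components at 1 or more per library (35700) was 32600 to 38600 with a library left out, and the change in the share of the 10 most abundant (-26.1 percentage points) was -26.9 to -25.1. In the larger set alone these were 29100 and -26.1 (exact p = 0.0714 each, the smallest that 6 against 2 libraries allow). The count at 1 or more uses deposited values, and no scaling was tried for it. Late-only components in the whole table numbered 8133 at a threshold of 1, 16453 at 0.5 and 2118 at 5, and components present throughout numbered 3659 at 5. The 4 named components kept direction in all 26 alternatives and the threshold in 25. Depth in reads is unknown, which limits statements on low values. No paired analysis was possible because a stage is represented by a single library and libraries of the 2 groups share no number in the labels.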

Other observations

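By their median over the stages in between, few components left the range of the 11 libraries by 2-fold or more. Smaller departures were not counted. Such a median does not show a rise or dip confined to a few stages. The filter also left out components present at the stages in between alone. A median over the 13 unused stages at least 2-fold above the highest of the 11 libraries was found for 172 of the 27527 tested (0.625%). These were 123 of the 14746 called higher (0.834%), 11 of the 6505 called lower (0.169%) and 38 of the 6276 not called (0.605%), a share close to that of all tested. A median at least 2-fold below the lowest of the 11 was found for 16. These values use the scaling factors of stages 12.5 to 18, the lowest of the series, which raise the scaled values there.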
